A study of Schmidtea mediterranea with 8 samples.

Results

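acsl-1, acsl-2 and pla2 are the transcripts that the study of the planarian Schmidtea mediterranea groups under fatty-acid metabolism among its 29 candidate genes. They were taken here by identifier, as 3 of the 17882 transcripts measured: acsl-1 is SMED30005508, acsl-2 is SMED30013319 and pla2 is SMED30011291. The study picked its candidates among transcripts lowered in whole-worm libraries after RNAi of chd4 or p53. Those libraries are other samples. The comparison asks how strongly each of the 3 separates stem cells from the cells that have left the cycle, and how each varies between libraries of the same fraction.

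Each library held polyA RNA from dissociated cells of adult planarians, stained with Hoechst, a DNA dye, and sorted by flow cytometry. X1 cells (4 libraries) are the dividing neoblasts, the planarian stem cells, and Xins cells (4 libraries) are the fraction that irradiation does not remove, which is mostly post-mitotic. The study kept animals of the asexual CIW4 strain, and the labels of neither fraction name a treatment. X1 is a gate on DNA content and not a pure cell type, and Xins mixes epidermal, gut, nerve, muscle and other cells, so in these bulk samples fewer cells of a type and less RNA per cell cannot be told apart. Values are RPKM (reads scaled to transcript length and to a library size), a scale per length, on which levels of different transcripts can be set side by side. The sources do not say whether the libraries of a fraction came from separate animals or sorts, so the p-values measure only the spread between these libraries, which may be technical.

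Free fatty acids are chemically inert in the cell until an acyl-CoA synthetase joins them to coenzyme A. The acyl-CoA that results can be burned by beta-oxidation, stored in neutral lipid, built into membrane phospholipid or attached to proteins. Phospholipases A2 work at the other end of this traffic, cutting a fatty acid out of a membrane phospholipid and leaving a lysophospholipid. The best protein hit of acsl-1 was mouse long-chain-fatty-acid--CoA ligase 5, and that of acsl-2 was ACSBG2 of Xenopus laevis, a member of the bubblegum family of the same enzymes. The best hit of pla2 was a snake venom phospholipase A2 homolog, a family in which some members have lost the catalytic activity. The activity of the planarian proteins was not measured here.

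The primers with which the study cloned each transcript for in situ hybridization and RNAi are shown under the name that the study gives each. They are written 5′ to 3′ without the cloning tail that they share, and were not matched to a transcript sequence here.
acsl-1 forward: GTTCAGCCGCTAATTATCAC
acsl-1 reverse: TCAATGTTGGAGTAAGGAGG
acsl-2 forward: TTAGGACTCGATGTGAAAGC
acsl-2 reverse: ATCTCTCGGAAGTAAGGACC
pla2 forward: TGAAAGATATTGAAAAATGCTTTGCCG
pla2 reverse: ATTTAATGTTCCAAGAGCCGCTC
Each primer was 20 to 27 bases long. The study sorts its in situ patterns by the main site of staining, which is the gut for acsl-1, the scattered mesenchymal cells of the AGAT-1 type, which are epidermal progeny, for pla2, and the gut, these mesenchymal cells and the epidermis for acsl-2. It also saw pla2 in zpuf-6 cells without AGAT-1 and weakly in the epidermis, and its text places all 3 in the gut, in epidermal progeny and in the mature epidermis. The genome positions of the 3 transcripts are not given here.

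The libraries were of like depth, with 14323705 to 15523242 reads assigned to transcripts in each, recovered from the steps of the RPKM values. The library size inside the RPKM was not the number of these reads: it was 0.823 to 1.02 times the reads in X1 libraries and 1.02 to 1.15 times in Xins libraries, so the deposited values carry a scaling that differs between the fractions. The marker transcripts split as the sorting labels give. Piwi-like protein 1 and PCNA, markers of neoblasts and of DNA replication, summed to 2712 to 3086 RPKM in X1 libraries and 51.7 to 126 RPKM in Xins libraries. AGAT-1, zpuf-6 and odc-1, markers of the epidermal lineage, summed to 5.41 to 21.6 RPKM in X1 and 1243 to 1462 RPKM in Xins. The 6 candidates with a gut pattern (cyp3G1, cyp3143A1, zfp-3, traf-4, zfp-2 and nkx-2.2) went in either direction. The limma test called cyp3G1, cyp3143A1, zfp-3 and traf-4 higher in Xins, zfp-2 and nkx-2.2 higher in X1, and the sum of the 6, most of it zfp-2, was 74.4 to 96.4 RPKM in X1 and 62.4 to 82.7 RPKM in Xins. The limma test across the 15563 transcripts with a mean of at least 1 RPKM called 12011 of them (77.2%) different, taking an adjusted p below 0.05 as a call. X1 was above Xins in 5519 of these calls and below it in 6492. The share of calls with X1 above Xins was 45.9% with the values as deposited and 56.1% after quantile normalization, which changed the median log2 difference of all transcripts to 0.22, against -0.11 as deposited.

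All 3 lipid transcripts had a lower mean in X1 than in Xins, by amounts that differed widely. pla2 was close to absent from X1, at 0.395% of its Xins mean in X1. acsl-1 stood at 32.4% of its Xins mean in X1, and acsl-2 at 65.2%. The limma test called pla2 and acsl-1 and did not call acsl-2, so 2 of the 3 were called higher in Xins, beside 41.7% of all transcripts tested. The X1 and Xins libraries did not overlap for pla2 and acsl-1 and did overlap for acsl-2, beside 71.2% of all transcripts tested without overlap and 38.7% with every Xins library above every X1 library. With most of the transcriptome different between the fractions, a call by itself does not set a transcript apart, and the sizes of the differences carry the comparison.

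**Figure D1:**
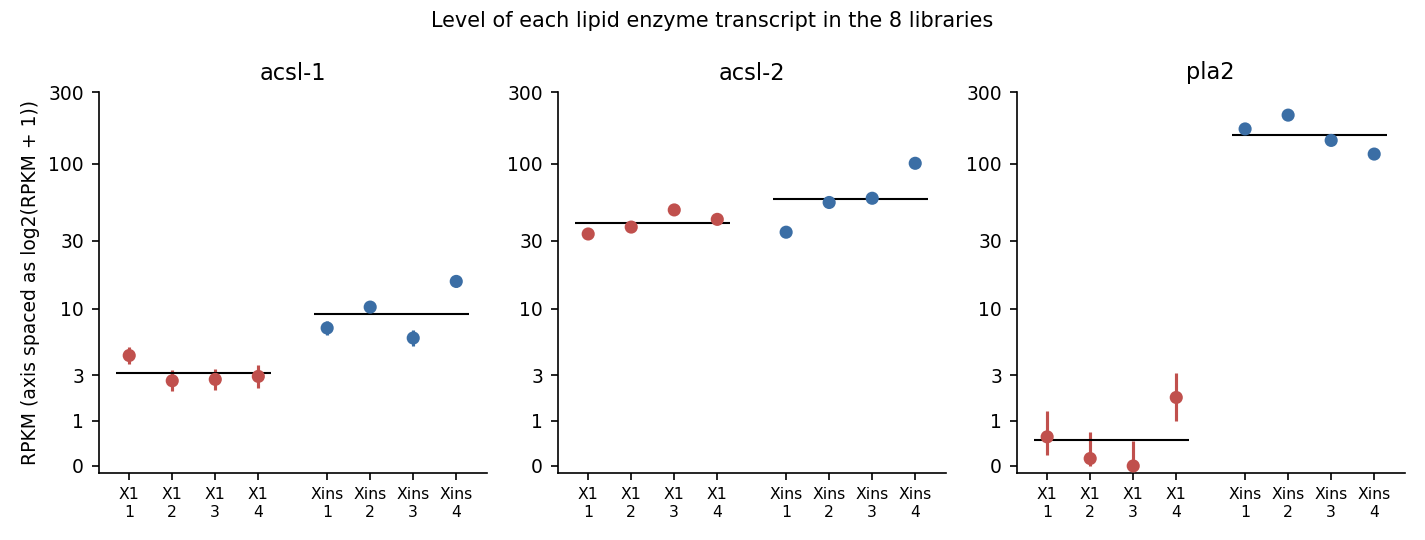
RPKM of acsl-1, acsl-2 and pla2 (y axes spaced as log2(RPKM + 1)) in the 4 X1 libraries (red) and the 4 Xins libraries (blue), with bars for the 95% Poisson counting interval of each library and lines for the fraction mean on the log scale. pla2 lies at 0 to 1.84 RPKM in X1 and at 116 RPKM or above in Xins, acsl-1 separates without overlap at lower levels, and acsl-2 overlaps.

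pla2, the phospholipase, was measured at 0.559, 0.120, 0 and 1.84 RPKM in X1 libraries 1 to 4, against 170, 210.5, 143 and 116 RPKM in Xins libraries 1 to 4. These values rest on 5, 1, 0 and 13 reads in X1 and on 1704, 2006, 1357 and 1142 reads in Xins. Every Xins library was far above every X1 library, and the lowest of Xins was 62.8 times the highest of X1. The 0 in X1 replicate 3 allows a level of up to 0.380 RPKM, taken as 3 reads, and the upper end of its two-sided exact Poisson interval was 0.467 RPKM. Pooled over the X1 libraries, the 19 reads gave 0.590 RPKM with an exact Poisson interval of 0.355 to 0.921 RPKM, and this interval, like the others on reads, covers counting error only. pla2 averaged 0.631 ± 0.844 RPKM in X1 and 160 ± 40.5 RPKM in Xins (SD, n = 4 each), a mean 253 times as high in Xins. On the log2(RPKM + 1) scale, which understates the change of low transcripts, X1 minus Xins was -6.72 (SE 0.30, 95% interval -7.38 to -6.06, limma adjusted p of 2.2e-09). Only 0.610% of the transcripts tested had a more negative difference, and among the 29 candidates pla2 had the fourth most negative, after zpuf-3 (-7.98), AGAT-1 (-7.39) and zpuf-4 (-7.25).

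X1 replicate 4 held 13 of the 19 pla2 reads in X1. Without that library the X1 mean of pla2 was 0.226 RPKM and the mean in Xins 706 times as high, against 253 times with all libraries. The same library was the highest of the X1 libraries for AGAT-1, zpuf-6 and odc-1. As shares of the Xins mean, X1 libraries 1 to 4 stood at 0.350%, 0.0751%, 0% and 1.15% for pla2, at 0.354%, 0.238%, 0.721% and 0.731% for AGAT-1, at 0.624%, 0.690%, 1.69% and 3.12% for zpuf-6, and at 0.629%, 0.450%, 0.356% and 1.73% for odc-1. The part of Xins-type cells in the small pla2 signal of X1 was not tested.

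acsl-1, the long-chain acyl-CoA ligase, was a transcript of low level. It was measured at 4.40, 2.67, 2.75 and 2.92 RPKM in X1 libraries 1 to 4, against 7.21, 10.3, 6.05 and 15.7 RPKM in Xins libraries 1 to 4. These came from 145, 82, 80 and 76 reads in X1 and from 266, 362, 212 and 572 reads in Xins. The fractions did not overlap, but the gap was narrow, with the lowest Xins library at 1.38 times the highest X1 library. acsl-1 averaged 3.18 ± 0.815 RPKM in X1 and 9.82 ± 4.32 RPKM in Xins (SD, n = 4 each), a mean 3.08 times as high in Xins. X1 minus Xins was -1.31 on the log2(RPKM + 1) scale (SE 0.26, 95% interval -1.87 to -0.74, limma adjusted p of 5.7e-04). Of the transcripts tested, 27.1% had a more negative difference. Among the 29 candidates acsl-1 ranked 24 from the most negative, between adss (-1.44) and cyp3G1 (-1.23). With a pseudocount of 5 in place of 1 the difference was -0.82, and after quantile normalization it was -0.83 (limma adjusted p of 0.018).

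acsl-2, the bubblegum-type ligase, was the most abundant of the 3 in X1 and the least different between the fractions. It was measured at 33.5, 37.3, 48.8 and 42.1 RPKM in X1 libraries 1 to 4, against 34.4, 54.8, 58.5 and 100.4 RPKM in Xins libraries 1 to 4. Xins replicate 1 lay inside the range of X1, and Xins replicate 4 stood well above every other library. acsl-2 averaged 40.4 ± 6.59 RPKM in X1 and 62.01 ± 27.7 RPKM in Xins (SD, n = 4 each), a mean 1.53 times as high in Xins. X1 minus Xins was -0.52 (SE 0.26, 95% interval -1.09 to 0.051, limma adjusted p of 0.088), which is short of the threshold. The interval takes in no difference as well as one of -1.09, so the data do not show that acsl-2 is equal in the fractions. A more negative difference was found in 40.8% of the transcripts tested, and the rank among the 29 candidates was 27. The call was made without Xins replicate 1 (-0.76, no overlap, limma adjusted p of 0.0089), and was not made without Xins replicate 4, where the difference was -0.26 at a limma adjusted p of 0.26. With all libraries, acsl-2 was called with library sizes from summed reads (-0.77, limma adjusted p of 0.011), after rescaling to a common RPKM sum (-0.71, limma adjusted p of 0.017), with limma-voom on recovered reads (-0.53, limma adjusted p of 0.039) and with a replicate block (-0.52, limma adjusted p of 0.038).

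**Figure D2:**
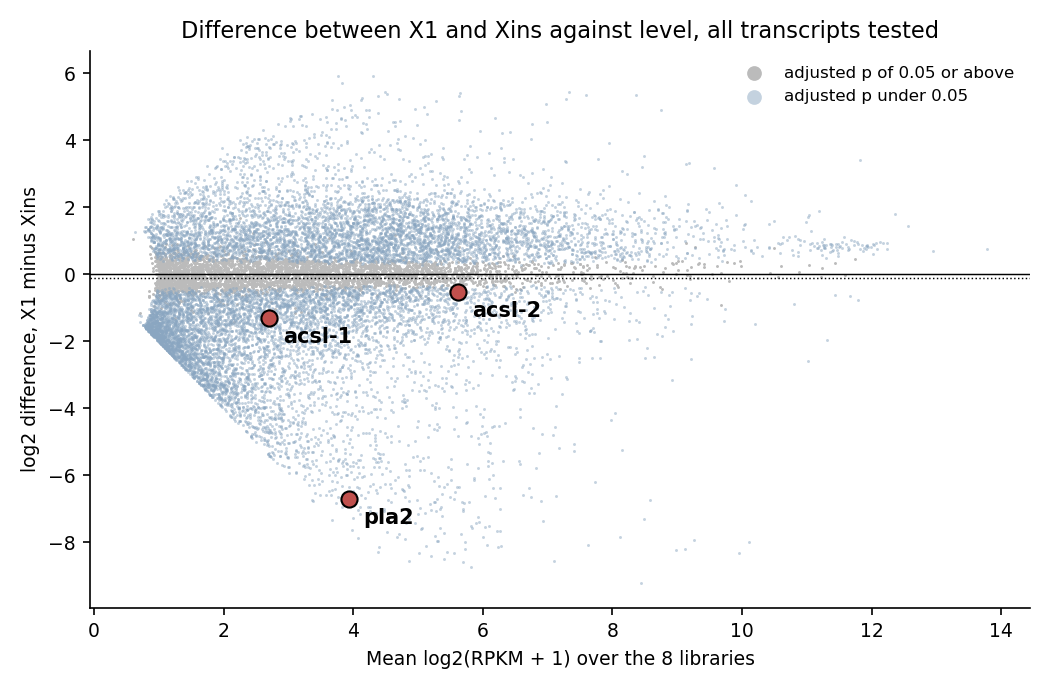
Log2 difference between X1 and Xins (y axis) against the mean log2(RPKM + 1) over the 8 libraries (x axis) for the 15563 transcripts tested, with blue points at a limma adjusted p under 0.05, grey points above it, and a dotted line at the median of -0.11. pla2 lies near the lower edge at -6.72, acsl-1 at -1.31 lies inside the blue band, and acsl-2 at -0.52 lies among transcripts on either side of the threshold.

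Whether the members differ from each other in how they separate the fractions was tested on the difference of log2(RPKM + 1) between members inside each library, with an exact two-sided permutation test over the 8 libraries. With 4 libraries against 4 this test cannot go below p = 0.0286, and p-values were adjusted over the 3 pairs. pla2 minus acsl-1 was -1.47 ± 0.67 in X1 and 3.94 ± 0.76 in Xins (SD, n = 4 each, exact p of 0.0286, adjusted p of 0.0429). pla2 minus acsl-2 was -4.78 ± 0.75 in X1 and 1.42 ± 0.91 in Xins, with the same exact and adjusted p. In each of these pairs the X1 and Xins libraries did not overlap, so the order of the transcripts turned over between the fractions: pla2 was the lowest of the 3 in every X1 library and the highest in every Xins library. acsl-1 minus acsl-2 was -3.31 ± 0.45 in X1 and -2.52 ± 0.42 in Xins (SD, n = 4 each). X1 replicate 1, at -2.68, reached into the Xins range of -3.08 to -2.11, and the difference of -0.79 between the fractions had an exact p of 0.0571, also after adjustment. The pair was therefore not shown to separate the fractions by different amounts, and after quantile normalization the difference between the fractions was -0.23 (exact p of 0.4).

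**Figure D3:**
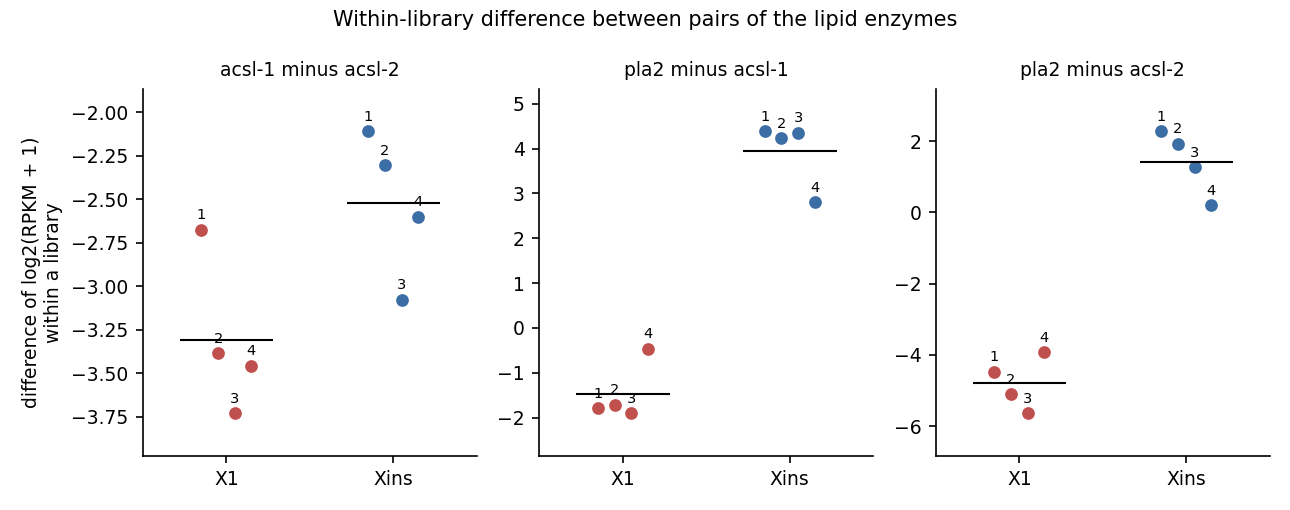
Difference of log2(RPKM + 1) between members within each library (y axes, 1 panel for each pair) for X1 (red) and Xins (blue), with the replicate number over each point and a line at the mean. Both pairs with pla2 separate fully (means of -1.47 in X1 and 3.94 in Xins for pla2 minus acsl-1), whereas for acsl-1 minus acsl-2 X1 replicate 1 lies within the range of Xins.

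The same turn of order shows in the summed level of the 3 transcripts, which was 38.4 to 51.5 RPKM in X1 and 207 to 276 RPKM in Xins. acsl-2 made up 87.1% to 94.7% of the sum in X1 and 16.2% to 43.3% in Xins. pla2 made up 0% to 3.94% in X1 and 49.9% to 80.4% in Xins. acsl-2 was above acsl-1 in all 8 libraries, at 7.61, 14.0, 17.8 and 14.4 times its level in X1 libraries 1 to 4 and at 4.78, 5.32, 9.67 and 6.39 times in Xins libraries 1 to 4.

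The fractions accounted for 98.1% of the variation of log2(RPKM + 1) over the libraries in pla2, for 75.4% in acsl-1 and for 29.004% in acsl-2, beside a median of 85.2% over all transcripts tested. The ligases were variable inside Xins. The coefficient of variation of acsl-1 was 25.6% in X1 and 44.0% in Xins, where counting error alone would give 10.2% in X1 and 5.32% in Xins. For acsl-2 it was 16.3% in X1 and 44.7% in Xins, where counting error would give 2.94% in X1 and 2.15% in Xins. On the log2 scale the SD was 0.26 in X1 and 0.55 in Xins for acsl-1, and 0.23 in X1 and 0.62 in Xins for acsl-2, beside medians over all transcripts tested of 0.23 in X1 and 0.26 in Xins. The X1 spread of the ligases was thus close to that of a usual transcript and their Xins spread was over it. For pla2 the coefficient of variation was 134% in X1, where counting error would give 45.9%, and 25.3% in Xins, where it would give 2.54%.

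How the replicates vary together is described by the deviation of each library from the mean of its fraction, since 4 libraries are too few for a correlation. In Xins, acsl-1 deviated by -0.32, 0.14, -0.54 and 0.71 in replicates 1 to 4, and acsl-2 by -0.73, -0.08, 0.02 and 0.79. Replicate 4 was the highest Xins library for each ligase, while the lowest was replicate 3 for acsl-1 and replicate 1 for acsl-2. pla2 deviated by 0.13, 0.43, -0.13 and -0.43, and had its lowest Xins library in replicate 4. The Xins library richest in the ligases was therefore the poorest in pla2.

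Some markers moved with this library and others did not. Xins replicate 4 was also the highest Xins library for 4 of the 6 gut-pattern candidates, by 0.24 for cyp3G1, a cytochrome P450, 0.57 for cyp3143A1, another of that family, 0.21 for traf-4, a signalling adaptor, and 0.85 for nkx-2.2, a homeobox factor. It was not the highest for the zinc-finger candidates zfp-3 (-0.20) and zfp-2 (0.13). The summed level of the 6 was 82.7 RPKM in Xins replicate 4 and 63.1, 62.4 and 68.7 RPKM in Xins replicates 1 to 3. Among the epidermal lineage markers, replicate 4 was the lowest Xins library for zpuf-6 (-0.31), a planarian protein of unknown function, and for odc-1 (-0.22), an ornithine decarboxylase candidate, and the highest for AGAT-1 (0.06), which encodes an amidinotransferase of creatine synthesis. The summed level of these 3 was 1243 RPKM in Xins replicate 4 and 1286, 1462 and 1280 RPKM in Xins replicates 1 to 3. Candidates outside these marker lists were mixed as well. Of those with the AGAT-1 mesenchymal pattern, egr-5, gatm and ttpal were highest in Xins replicate 4. More of them were lowest there, namely zpuf-1, zpuf-2, zpuf-3, mpv17, cyp3140A1, cyp3142A1 and litaf. cyp3141A1, which also stained cells in the pharynx, was neither. zpuf-4 and zpuf-5, which stained discrete mesenchymal cells, were lowest in that library too. Of those with staining in both gut and mesenchymal cells, zpuf-7 and slc25a-19 were lowest in Xins replicate 4, and adss was highest in Xins replicate 1. Xins replicate 1, the lowest for acsl-2, was the lowest for 2 of the 6 gut-pattern candidates, nkx-2.2 (-0.86) and cyp3143A1 (-0.46), and not for zfp-3 (-0.16), zfp-2 (-0.02), cyp3G1 (0.02) or traf-4 (0.16). The part of the mix of cell types in the spread of the 3 lipid transcripts was not tested. Piwi-like protein 1 and PCNA were highest in Xins replicate 3, at 4.13% and 5.32% of their X1 means, and not in replicate 4.

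In X1 the deviations were smaller for the ligases and did not run together. acsl-1 deviated by 0.39, -0.17, -0.14 and -0.07 in X1 replicates 1 to 4, with replicate 1 alone above the mean. acsl-2 deviated by -0.25, -0.10, 0.28 and 0.07, with replicate 1 the lowest. pla2 deviated by 0.06, -0.41, -0.58 and 0.93, on 0 to 13 reads.

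**Figure D4:**
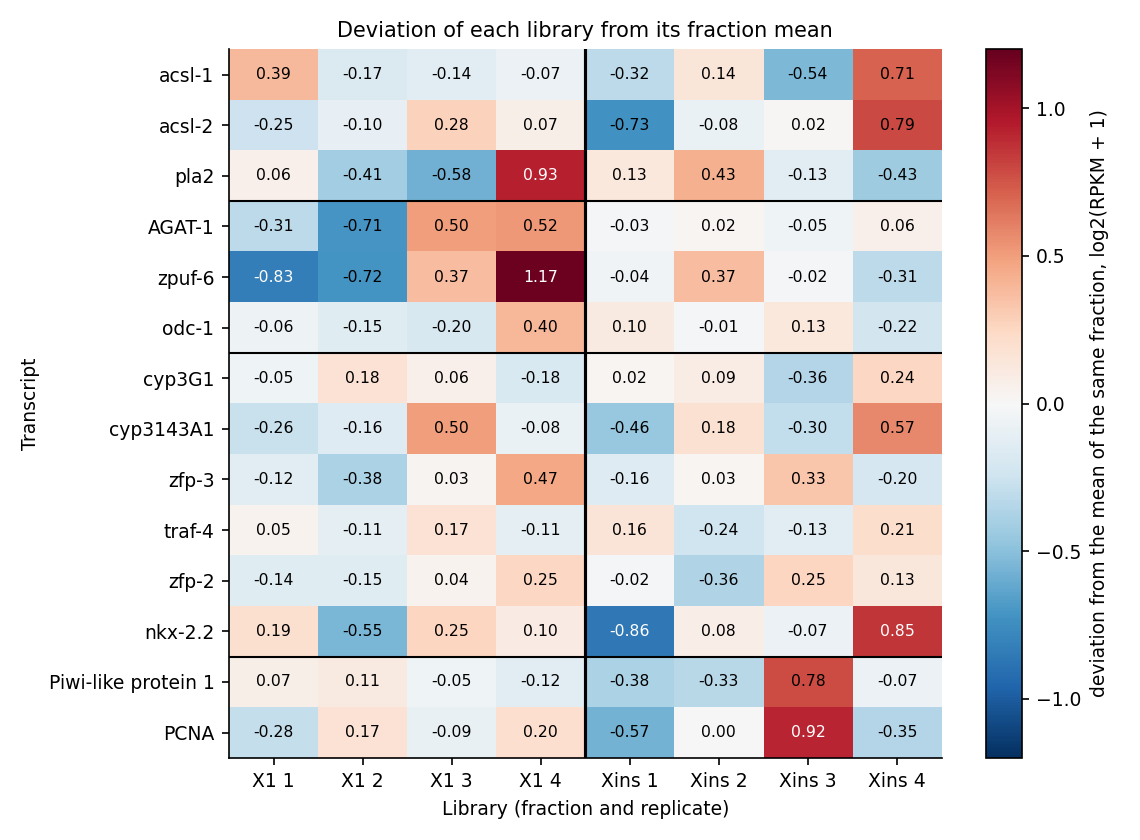
Deviation of each library (columns) from the mean of its own fraction on the log2(RPKM + 1) scale for acsl-1, acsl-2 and pla2 (top rows), epidermal lineage markers, gut-pattern candidates, and the neoblast and replication markers (bottom rows), with red above and blue below the mean. In Xins replicate 4 acsl-1 (0.71) and acsl-2 (0.79) are high together with nkx-2.2 (0.85) and cyp3143A1 (0.57), while pla2 (-0.43) and zpuf-6 (-0.31) are low. The marker classes are not uniform there, with the gut-pattern zfp-3 at -0.20 and zfp-2 at 0.13, and the epidermal lineage marker AGAT-1 at 0.06.

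The transcripts whose profile over the 8 libraries was most like each member were ranked by the root mean square distance between mean-centred log2(RPKM + 1) values, among 15562 others. Because the nearest were picked on these same libraries, sharing high and low libraries with a member follows from the choice and adds no separate support. Nearest to acsl-2 were SMED30033332 (0.162), SMED30017876 (0.165) and SMED30005748 (0.171). The last has hepatocyte nuclear factor 4-alpha, a nuclear receptor, as its best hit, and was measured at 13.7, 12.04, 18.6 and 16.6 RPKM in X1 libraries 1 to 4 and at 13.3, 19.3, 18.8 and 28.9 RPKM in Xins libraries 1 to 4. It had, like acsl-2, its lowest Xins value in replicate 1 and its highest in replicate 4. Nearest to acsl-1 were SMED30013366 (0.132), SMED30025097 (0.145) and SMED30001113 (0.165), and the nearest candidate was cyp3G1 (0.304, rank 204). Nearest to pla2 were SMED30000779 (0.221), SMED30001553 (0.262) and SMED30011447 (0.333). SMED30000779 was listed at 0, 0, 0 and 1.21 RPKM in X1 libraries 1 to 4. In Xins libraries 1 to 4 it was at 107, 188, 107 and 86.5 RPKM. Its X1 signal was only 4 reads, all in replicate 4, which also held most of the X1 reads of pla2. The nearest candidate to pla2 was zpuf-6 (0.584, rank 65) and the nearest to acsl-2 was zfp-3 (0.512, rank 2353). The ligases were not among each other's nearest: at a distance of 0.546, acsl-2 ranked 2848 of 15562 from acsl-1, and acsl-1 ranked 3030 from acsl-2. This distance takes in the difference between the fractions as well as the spread inside them.

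The members were set beside 56 other transcripts whose protein hits in the study's RNAi tables name an enzyme or carrier of lipid metabolism. The tables hold transcripts changed after RNAi of chd4 or p53, regulators needed for the stem cell progeny, so the list is not a neutral sample of lipid genes. All of those measured here were lowered by the RNAi, except SMED30002911, SMED30028588 and SMED30024278, which were raised. The members too were picked for being lowered. The part of this choice in the counts below was not tested. Of the 56, 54 were in the table and 53 had a mean of at least 1 RPKM. The limma test called 38 of the 53 (71.7%, beside 77.2% of all transcripts tested), with 9 higher in X1 (17.0%, beside 35.5%) and 29 higher in Xins (54.7%, beside 41.7%). The median log2 difference of the 53 was -0.72, beside -0.11 over all transcripts tested. With the quantile normalization the counts were 13 toward X1, beside 44.4% of all transcripts tested, and 26 toward Xins, beside 34.8%. Of the 53, 29 had a more negative difference than acsl-2, 16 had a more negative one than acsl-1, and 0 had a more negative one than pla2.

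Among the other acyl-CoA synthetases, 3 of the 4 tested were higher in Xins (beside 41.7% of all transcripts tested) and 0 were higher in X1 (beside 35.5%). In either direction 75% were called, near the 77.2% of all transcripts tested. These 3 have the same best hit, ACSS3, a mitochondrial enzyme that activates short-chain acids. SMED30000562 averaged 9.53 ± 2.54 RPKM in X1 and 58.2 ± 13.7 RPKM in Xins (-2.50, limma adjusted p of 4.3e-07). SMED30002393 averaged 0.189 ± 0.0881 RPKM in X1 and 3.96 ± 0.513 RPKM in Xins (-2.06, limma adjusted p of 2.0e-07), and SMED30022231 averaged 1.504 ± 0.587 RPKM in X1 and 2.58 ± 0.281 RPKM in Xins (-0.54, limma adjusted p of 0.027). The remaining synthetase, SMED30031947, shares its best hit ACSBG2 with acsl-2 and was likewise not called, with 4.999 ± 0.880 RPKM in X1 and 6.23 ± 1.55 RPKM in Xins (-0.26, limma adjusted p of 0.23, SD and n = 4 for each of these means). Transcripts with the same hit may be related copies or pieces of a single gene, and the alignment settings that the study gives for its whole-worm libraries kept reads that match several transcripts. SMED30000457, listed in the same class, was not analysed here.

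All 4 other phospholipases tested were higher in Xins (beside 41.7% of all transcripts tested), and none was near pla2 in size. SMED30015364, whose best hit is a honeybee phospholipase A2, averaged 0.874 ± 0.751 RPKM in X1 and 9.21 ± 3.30 RPKM in Xins (SD, n = 4 each), a difference of -2.48 (limma adjusted p of 1.7e-05). The transcript with a phospholipase B1 hit, SMED30015566, differed by -2.15, ABHD3 (SMED30000542) by -1.07 and phospholipase D3 (SMED30034193) by -0.78, each called. SMED30034017, with a group XV phospholipase A2 hit, fell under the minimum level, with 2 reads over the X1 libraries and 69 over the Xins libraries.

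**Figure D5:**
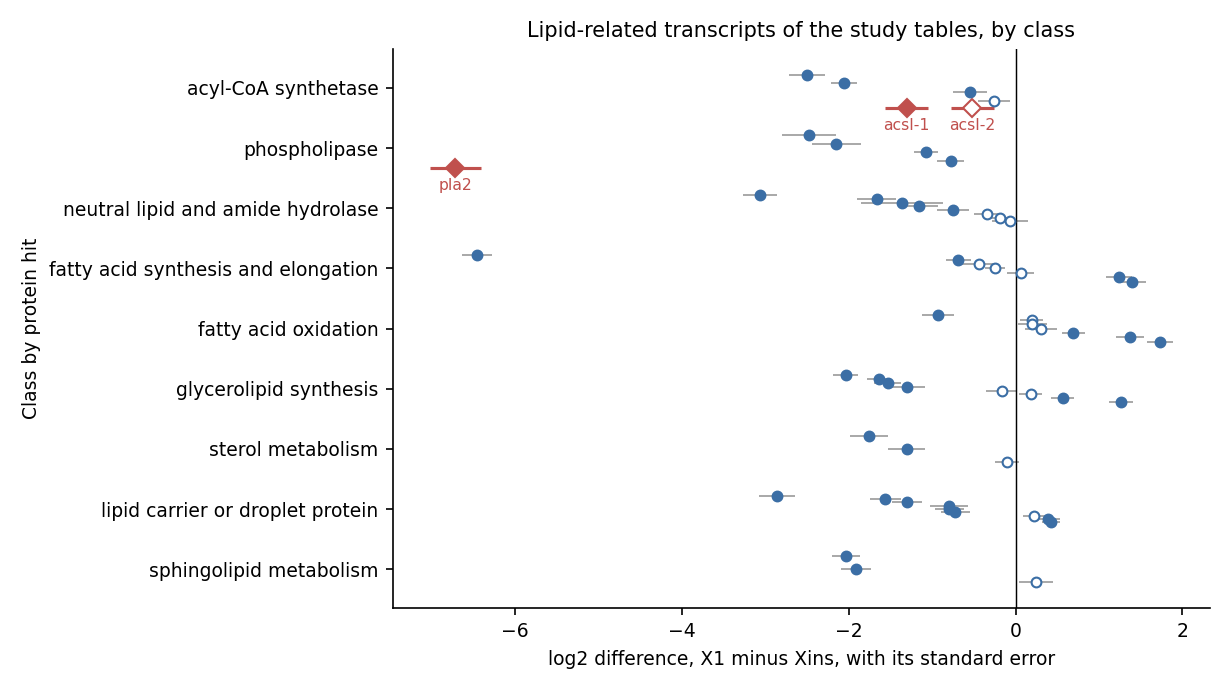
Log2 difference between X1 and Xins with its standard error (x axis) for the 53 listed lipid transcripts tested (blue) and acsl-1, acsl-2 and pla2 (red diamonds), by class of protein hit (rows), with filled symbols at a limma adjusted p under 0.05. pla2 at -6.72 lies left of every other point, with ELOV7 (-6.46) the nearest, and the oxidation class, with a median of 0.30, reaches furthest to the right.

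The other classes are given by their counts, to be read beside the 35.5% of all transcripts tested that were higher in X1 and the 41.7% that were higher in Xins. Of the 7 fatty acid oxidation transcripts tested, 3 were higher in X1 and 1 was higher in Xins. The largest difference toward X1 in the list was that of mitochondrial acetyl-CoA acetyltransferase (SMED30013833), which takes part in the last step of beta-oxidation and averaged 279 ± 41.5 RPKM in X1 and 83.4 ± 12.8 RPKM in Xins (1.73, limma adjusted p of 5.5e-07). The oxidation transcript with the largest difference toward Xins was the acyl-CoA dehydrogenase AidB hit SMED30016991 (-0.93). Of the 7 transcripts of fatty acid synthesis and elongation, 2 were higher in X1, led by the mitochondrial malonyl-CoA transacylase hit SMED30035351 (1.39), and 2 were higher in Xins. The leader of these, the elongase ELOV7 hit SMED30030679, had a profile nearly as steep as that of pla2, with 0.733 ± 0.380 RPKM in X1 and 149 ± 18.1 RPKM in Xins (SD, n = 4 each, -6.46, limma adjusted p of 1.8e-10).

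Of the 8 hydrolases of neutral lipids and amides tested, 5 were higher in Xins, led by fatty-acid amide hydrolase 1 (SMED30031745, -3.06). 0 were higher in X1, so that 62.5% were called, beside 77.2% of all transcripts tested. Of the 8 glycerolipid synthesis transcripts, 2 were higher in X1, led by acylglycerol kinase (SMED30011035, 1.26), and 4 in Xins, led by 2-acylglycerol O-acyltransferase 2 (SMED30022665, -2.04), which makes diacylglycerol. Of the 9 carriers and droplet proteins, 2 were higher in X1, led by perilipin-5, a coat protein of lipid droplets (SMED30013396, 0.43), with 309 ± 5.15 RPKM in X1 and 230 ± 11.6 RPKM in Xins (SD, n = 4 each, limma adjusted p of 0.0042). The other 6 called in that class were higher in Xins, led by the vitellogenin hit SMED30003809 (-2.86). Of the 3 sterol transcripts, 2 were higher in Xins, led by sterol O-acyltransferase 1 (SMED30015783, -1.75), which stores cholesterol as esters. Of the 3 sphingolipid transcripts, 2 were higher in Xins, led by the acid sphingomyelinase-like hit SMED30000819 (-2.03).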

How the data were processed

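Cells of 4 X1 and 4 Xins libraries were sequenced after Illumina TruSeq preparation of polyA RNA. The authors deposited RPKM values per transcript in a single table. The submitters' processing notes name CASAVA 1.8.2, Bowtie and edgeR, and the study describes, for its whole-worm libraries, Bowtie alignment to a set of assembled transcripts reduced to unique loci, with reads of many matches dropped and counts tallied by a custom script, and does not say so of the sorted libraries. The library size inside the RPKM differed from the recovered reads. Values were used as deposited. Because the steps between low RPKM values are whole multiples of 1 read, reads were recovered for all 17882 rows (within 0.001 read), against 0 of 500 rows with noise added. Groups and replicate numbers came from the labels.

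log2(RPKM + 1) was tested with limma 3.58.1 (trend, two-sided) in R 4.3.3 for transcripts with a mean of at least 1 RPKM, with Benjamini-Hochberg adjustment over 15563. limma-voom on recovered reads called 11958. Pairs of members were compared by exact permutation in scipy 1.17.1. The script was tested on simulated data.

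Named transcripts were the 3 members, markers, every listed synthetase and phospholipase, the called transcript with the largest difference in each direction of each other class, and the nearest profiles. Neighbours in candidate rank (zpuf-3, zpuf-4, adss) were named after their values were seen. So were the candidates outside the marker lists that are given for Xins replicate 4. The members and lists were chosen with earlier results of these data known. Alternatives were other pseudocounts, minimum levels, scalings, no trend, a replicate block, limma-voom, leaving out each library and, for each member, an exact permutation test. Library sizes from summed reads were an alternative chosen after seeing the data. Precision is limited by 4 libraries per fraction and, for pla2 in X1, by its read count.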

Additional observations from a re-analysis of the deposited data

Results flagged for a closer look

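In 72 groups of 4 libraries, from the members, their pairs and the named transcripts, a single library lay far from the others, by the gap relative to the whole range, in 5, where chance gives about 1 in 20 groups, or 3.6. acsl-1 in X1 was at 4.40 RPKM in replicate 1 and at 2.67 to 2.92 RPKM in the others. The malonyl-CoA transacylase hit SMED30035351 was at 52.3 RPKM in replicate 4 of X1, where replicates 1 to 3 gave 42.1 to 42.7 RPKM. The acylglycerol kinase hit SMED30011035 was at 24.8 RPKM in Xins replicate 3 and at 18.1 to 18.6 RPKM in the other Xins libraries. Within X1, pla2 minus acsl-1 was -0.46 for replicate 4, where replicates 1 to 3 gave -1.91 to -1.71. The same pair was 2.80 in Xins replicate 4 and 4.23 to 4.38 in the other Xins libraries.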

How the results depend on the processing

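The differences of pla2 and acsl-1 kept their direction in all 20 alternatives run, and their call in the 19 that used limma. The remaining one, an exact permutation test, gave each an unadjusted exact p of 0.0286. That is the smallest it can give, and it is not a call like those of limma. Over the alternatives other than leaving out a library, the difference of pla2 was -8.87 to -4.85 and that of acsl-1 -1.54 to -0.82. With each library left out in turn, pla2 differed by -7.03 to -6.52, acsl-1 by -1.49 to -1.07 and acsl-2 by -0.76 to -0.26. acsl-2 kept its direction in all 20 and was called in 5: without Xins replicate 1, with library sizes from summed reads, chosen after seeing the data (-0.77, limma adjusted p of 0.011), after rescaling to a common RPKM sum (-0.71, limma adjusted p of 0.017), with limma-voom on recovered reads (-0.53, limma adjusted p of 0.039) and with the replicate block. The common sum changed the median of all transcripts to -0.27 and the summed reads to -0.32. With the summed reads, 4697 of all 15563 transcripts tested were called toward X1 (39.6% of the calls) and 7179 toward Xins. Of the 53 listed lipid transcripts tested, 7 were then called toward X1 and 34 toward Xins. Whether replicate numbers pair the samples is not stated in the sources. The deviations of X1 and Xins libraries of the same number correlated at 0.27, -0.19, -0.12 and -0.016, and those of unlike numbers at -0.23 to 0.20. Deviations from a mean of 4 libraries are tied to each other, so these values cannot decide on pairing. With the replicate number as a block acsl-2 was at -0.52 (limma adjusted p of 0.038) and 11911 transcripts were called, beside 12011. Within numbers the permutation test of the pairs cannot go below an exact p of 0.125. acsl-1 minus acsl-2 was -1.03 with no pseudocount and -0.33 with a pseudocount of 5 (exact p of 0.2). Pairs with pla2 have no value without a pseudocount, because of the 0. With a minimum mean of 5 RPKM, 39 listed lipid transcripts were left and 19 were higher in Xins, fewer being tested. Calls over all transcripts were 8088 with that minimum, out of 10044, and 13368 without one.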
